A study of Mus musculus with 3 samples.

Results

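Neutrophil lineage cells were examined among the barcodes of bone marrow cells sorted as mesenchymal stromal cells (BM-MSCs, the non-blood cells that support blood formation and give rise to bone and fat). A barcode stands for 1 captured cell. The analysis used barcodes with 500 or more detected genes, 1000 or more UMIs (unique molecular identifiers, each counting 1 captured RNA molecule) and no more than 10% mitochondrial UMIs. Members were chosen by 8 granule genes: S100a8, S100a9, Ngp, Ltf, Camp, Mpo, Elane and Prtn3 had to reach a sum of 100 per 10000 UMIs, with Cxcl12 under 20 per 10000 and the 4 adult hemoglobin genes under 1% of UMIs. This was met by 249 of 8336 barcodes: 67 of 4371 in WT, 60 of 1790 in R76W, and 122 of 2175 in D130. Levels of the genes that chose the members, or that sorted them into stages, are given as a description.

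The 3 libraries came from C57BL/6 mice aged 6 to 8 weeks, 1 library per genotype. WT is the control, and the other mice carry a mutant connexin 43 that acts in osteocytes, the cells embedded in bone. Per the series' design text, R76W inhibits osteocyte gap junctions, whereas the model written there as Δ130–136, taken here to be D130, blocks hemichannels as well. Marrow was pushed out by syringe and the bone fragments were digested with collagenase. After red cell lysis, antibodies to CD31, CD45, Ter119, CD51 and PDGFRα were applied, the cells were sorted, and 3′ libraries (10x Genomics, v3) were made. The promoter of the mutant genes, the gates and any pooling of mice are not given in the sources used here. Genotype, library and sort cannot be told apart in this design and no test between genotypes could be run. Levels are given in CPM (counts per 1000000 UMIs) with exact Poisson 95% intervals and shares with exact Clopper-Pearson 95% intervals, which cover counting error only. Library totals ran from 29558251 to 81837778 UMIs. Members held a median of 5350 (WT), 5240.5 (R76W) and 8047 (D130) UMIs, and no member barcode occurred in more than 1 library.

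Neutrophils mature in the marrow from dividing progenitors, and their granules are filled in order. Promyelocytes make primary (azurophil) granule proteins such as myeloperoxidase and elastase, myelocytes and metamyelocytes make specific granule proteins such as lactoferrin and cathelicidin, and band and segmented cells make gelatinase granules, stop dividing and gain the receptors used outside the marrow. Neutrophils carry CD45, the product of Ptprc, on their surface.

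Each member was placed in the stage whose genes held most of its UMIs: primary (Mpo, Elane, Prtn3, Ctsg), specific (Ltf, Camp, Ngp, Lcn2) or late (Retnlg, Mmp8, Mmp9, Cxcr2, Ccl6, Il1b, Csf3r). Members with no list at 50 per 10000 UMIs were left unstaged. The stages held 34, 44 and 164 members, and 7 were unstaged. Promoters of leading genes of each stage are shown because the stages, and the results below, rest on these genes. That each group is high in its own stage follows from the staging. The sequences are from RefSeq on GRCm38.p6, from 250 bases before to 50 after the gene's start, and are written 5′ to 3′ in the direction of the gene. Mpo lies at chr11:87793534-87793833 on the plus strand, Elane at chr10:79886062-79886361 on the plus strand, Ngp at chr9:110419558-110419857 on the plus strand and Retnlg at chr16:48872358-48872657 on the plus strand. Capitals mark matches on either strand to TTNNGNAA, a form of the site bound by C/EBP factors, or to GAGGAA, a core bound by PU.1.
Mpo: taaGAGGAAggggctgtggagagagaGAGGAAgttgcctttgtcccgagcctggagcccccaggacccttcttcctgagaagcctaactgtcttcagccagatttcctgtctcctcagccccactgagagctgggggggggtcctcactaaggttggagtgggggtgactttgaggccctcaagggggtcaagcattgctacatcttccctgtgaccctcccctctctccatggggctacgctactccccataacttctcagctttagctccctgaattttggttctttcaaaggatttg
Elane: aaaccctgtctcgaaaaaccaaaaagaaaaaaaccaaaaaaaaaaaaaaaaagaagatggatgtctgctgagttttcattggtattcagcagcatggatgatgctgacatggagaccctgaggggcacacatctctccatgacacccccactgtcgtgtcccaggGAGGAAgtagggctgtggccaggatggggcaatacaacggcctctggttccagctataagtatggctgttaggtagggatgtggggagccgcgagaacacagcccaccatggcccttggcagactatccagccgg
Ngp: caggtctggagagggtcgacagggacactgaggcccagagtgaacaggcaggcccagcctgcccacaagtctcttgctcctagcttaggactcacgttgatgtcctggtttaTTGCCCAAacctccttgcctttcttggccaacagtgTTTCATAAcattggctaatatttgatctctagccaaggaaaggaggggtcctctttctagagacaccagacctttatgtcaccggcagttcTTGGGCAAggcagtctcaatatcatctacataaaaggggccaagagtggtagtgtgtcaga
Retnlg: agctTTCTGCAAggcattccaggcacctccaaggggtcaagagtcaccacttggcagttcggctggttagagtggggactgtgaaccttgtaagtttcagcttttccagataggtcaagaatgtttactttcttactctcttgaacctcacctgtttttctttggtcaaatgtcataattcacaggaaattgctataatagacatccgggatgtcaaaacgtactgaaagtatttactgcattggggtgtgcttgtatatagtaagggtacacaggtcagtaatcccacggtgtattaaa
Mpo held 2 GAGGAA matches and Elane 1, while Ngp held 3 TTNNGNAA matches and Retnlg 1. The windows of Camp (chr9:109849407-109849706 on the minus strand) and Cxcr2 (chr1:74153744-74154043 on the plus strand) held no TTNNGNAA match, and Cxcr2 held 2 GAGGAA matches. Among 32851 mouse promoters of this length, 40.7% held TTNNGNAA and 28.3% held GAGGAA. A match is thus common and is a description of these letters only.

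The neutrophil markers S100a8, S100a9, Ngp, Ltf, Camp and Elane all belong to the 8 genes that chose the members, so their presence follows from the choice and cannot check the label. Of these 6, 168 of 249 members had 3 or more. Ly6g, a neutrophil surface gene that neither the choice nor the staging used, had a UMI in 0 of 34 primary members, in 10 of 12, 5 of 5 and 22 of 27 specific members of WT, R76W and D130 and in 29 of 41, 34 of 49 and 46 of 74 late members.

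Marker lists of other marrow cells were at 0 only in part. No UMI was found in any staged member for 2 of 8 B lineage genes (Vpreb3, Ms4a1), 2 of 4 plasma cell genes (Jchain, Mzb1), 4 of 8 T or NK cell genes (Cd3e, Trac, Trbc2, Ncr1), 5 of 7 dendritic cell genes (Siglech, Ccr9, Cd209a, Xcr1, Clec9a), 4 of 7 eosinophil genes (Epx, Prg2, Il5ra, Ear6) and 2 of 7 basophil or mast cell genes (Prss34, Fcer1a). The other genes of these lists were detected. Summed levels in primary members ran from 448 to 786 CPM for the T or NK list, 101 to 132 for the dendritic list and 31.3 to 61.5 for the B lineage list. Nkg7, a granule gene of cytotoxic lymphocytes, held 97.9% of the T or NK UMIs and stood at 548, 448 and 785 CPM in primary, 24.2, 0 and 214 CPM in specific and 0 CPM in late members. Bst2 of the dendritic list stood at 116, 129 and 101 CPM in primary members and Cd79b of the B lineage list at 27.4, 29.4 and 29.6 CPM, and both were lower in the specific stage. Ebf1 of the B lineage list, with 59 UMIs in 4 late D130 members, made up all of that list's UMIs in late members. The part of such cells in the results was not tested. Monocyte genes were present as well: 18 members held 20 or more per 10000 UMIs of a list of 15 monocyte or macrophage genes. Of these, 12 were primary, 5 were the unstaged barcodes of D130 and 1 was a late D130 barcode. Mesenchymal genes (10 genes including Cxcl12 and Col1a1) reached 50 per 10000 in 5 members, 3 in WT (1 specific, 1 late, 1 unstaged) and 2 late ones in D130. The most extreme was an unstaged WT barcode of 94645 UMIs, of which 13934 were Bglap, the osteocalcin gene of osteoblasts, beside 86.3 per 10000 of S100a8. A doublet caller (Scrublet) marked 2 members, both in WT, and they were kept.

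Members were a small share of each library, smallest in WT and largest in D130. They made up 1.53% (1.19–1.94) of barcodes in WT against 3.35% (2.57–4.29) in R76W and 5.61% (4.68–6.66) in D130. No pair of these intervals overlapped. Barcodes with hemoglobin genes at 1% of UMIs or more, called erythroid here, took 49.5% of the WT library, 13.9% of R76W and 21.0% of D130. No other red cell gene was used for this, and Cxcl12 was not considered. Over barcodes under the hemoglobin limit, members were 3.04% (2.36–3.84) in WT against 3.89% (2.98–4.98) in R76W and 7.10% (5.93–8.41) in D130. There the WT and R76W intervals overlapped and D130 stood apart. The order WT, R76W, D130 was found under all 15 settings tried.

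S100a8 RNA was also found outside the members. At least 1 S100a8 UMI was found in 6.22% (5.05–7.57) of the 1494 Cxcl12-rich stromal barcodes in WT, 11.7% (9.94–13.7) of 1186 in R76W and 18.8% (16.5–21.3) of 1072 in D130, at median depths of 5976, 7998.5 and 8464.5 UMIs. The level in these barcodes did not follow the shares, at 69.8, 28.1 and 869 CPM. In erythroid barcodes the share was 6.56% in WT, 10.4% in R76W and 50.7% in D130, at median depths of 24724, 29226 and 33108.5 UMIs. There too the level did not follow the shares, at 273, 4.598 and 22.5 CPM. Barcodes that passed the granule limit and were left out for hemoglobin numbered 6 in WT, 0 in R76W and 0 in D130. Their part in the WT erythroid level was not tested. In WT and D130 most of the stromal S100a8 UMIs lay in few barcodes: 3 that passed the granule limit and were left out for Cxcl12 held 96.6% of them in D130, and 4 such barcodes held 74.5% in WT. R76W had no such barcode, and its stromal S100a8 UMIs lay in barcodes under the granule limit.

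The late stage was the most common in every library. It held 41 of 67 members in WT (61.2%, 48.5–72.9), 49 of 60 in R76W (81.7%, 69.6–90.5) and 74 of 122 in D130 (60.7%, 51.4–69.4). The R76W interval overlapped that of WT and began just above that of D130. Specific-stage members were 17.9% (9.61–29.2), 8.33% (2.76–18.386) and 22.1% (15.1–30.5) of WT, R76W and D130, and primary members were 17.9% (9.61–29.2), 10.0% (3.76–20.5) and 13.1% (7.69–20.4). For both of these stages all pairs of intervals overlapped. The late share was highest in R76W under all 17 settings. It depended on the stage genes: without the gene with the most UMIs in each list, late shares were 38.8%, 63.3% and 45.1%.

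**Figure D1:**
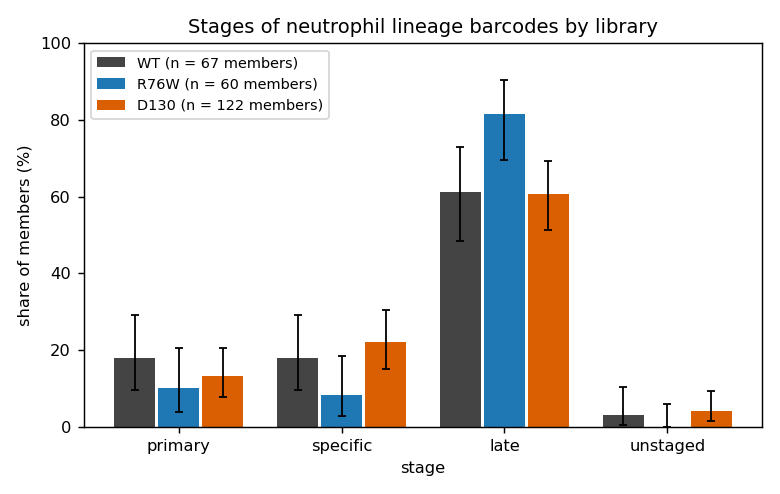
Share of members (%, y axis) in each stage (x axis), with bars coloured by library and exact Clopper-Pearson 95% intervals as error bars. The late bars stand at 61.2% for WT, 81.7% for R76W and 60.7% for D130.

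Neighbouring stages shared members and distant ones did not. Of the 249, 92 held 50 or more per 10000 UMIs of both the specific and the late list, 9 of both the primary and the specific list, and none of both the primary and the late list. Of those 9, 8 came from D130 and 1 from WT. The leading list was under 2 times the next in 13 members. RNA content went down along the stages, from a median of 48014 UMIs and 5836 genes in primary members to 17316.5 UMIs and 2794 genes in specific and 5089.5 UMIs and 1412.5 genes in late members. The 34 primary members therefore supplied 44.0% of all member UMIs. Ribosomal protein genes took 25.5%, 28.2% and 26.6% of UMIs in primary members of WT, R76W and D130, 5.58%, 2.76% and 7.87% in specific members and 1.93%, 2.10% and 2.72% in late members.

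**Figure D2:**
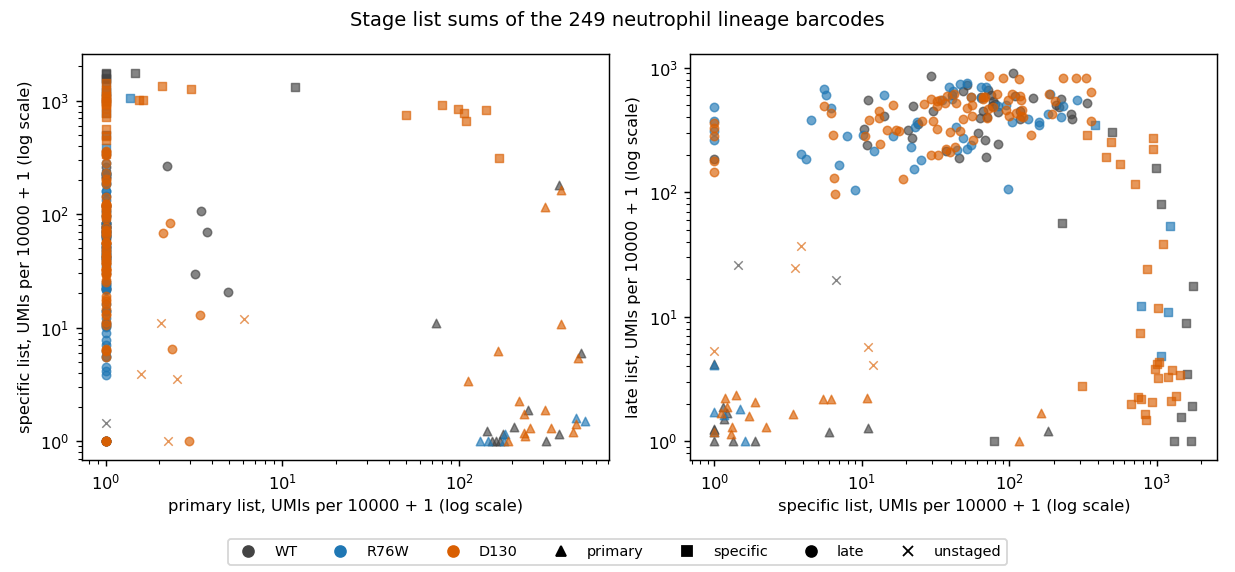
Sums of the stage lists in the 249 members, in UMIs per 10000 plus 1 on log axes, with colour for the library and shape for the stage. In all, 92 members held 50 or more per 10000 of both the specific and the late list, and none of both the primary and the late list.

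Primary granule genes were high in primary members and in part of the D130 specific stage. Mpo, the myeloperoxidase gene, whose product makes hypochlorous acid, stood in primary members at 4108 CPM in WT against 6091 in R76W and 5662 in D130. Elane, the neutrophil elastase gene, stood there at 7143 CPM in WT against 8322 in R76W and 9354 in D130. Specific-stage Elane was 62.8 CPM (33.5–107) in WT against 0 (0–42.8) in R76W and 2316 (2199–2438) in D130, with a UMI in 1 of 12, 0 of 5 and 8 of 27 members. D130 alone was high, and its UMIs came from 8 of its 27 specific members.

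The 34 primary members fell into 2 sets by their monocyte genes. The list summed to 0 to 6.93 per 10000 UMIs in 18 members and to 13.2 to 35.7 in the other 16, and a limit of 10, set after these values were seen, separated them. The second set held 8 of 12 primary members in WT, 4 of 6 in R76W and 4 of 16 in D130. Among the genes that made the split was Irf8, a transcription factor of monocyte and dendritic cell progenitors, at 373, 445 and 347 CPM in WT, R76W and D130 in the second set, compared with 0, 0 and 19.4 CPM. Cebpe, a factor needed for specific granule genes and no part of the list, stood at 9.57, 0 and 52.9 CPM in the second set and 426, 299 and 212 CPM in the first. Gfi1, a repressor that favours neutrophil over monocyte fate, stood at 0, 6.18 and 4.81 CPM in the second set and 91.2, 90.7 and 85.1 CPM in the first. In each of the 3 libraries Cebpe and Gfi1 were thus higher where the monocyte genes were low.

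Granule genes differed between these sets as well. Nkg7 stood over all libraries at 122 CPM where monocyte genes were high and 1031 CPM where they were low, with a UMI in 11 of 16 and 18 of 18 members. Elane stood at 3367, 2585 and 5972 CPM where monocyte genes were high and 13136, 16736 and 10402 CPM where they were low. Camp, the cathelicidin gene of specific granules, had no UMI in the monocyte-high set and stood at 3582, 9.07 and 1094 CPM in the other. In that other set Camp had a UMI in 2 of 4, 1 of 2 and 6 of 12 members. The specific list, which includes Camp, had median sums there of 2.59, 0.55 and 0.57, in the units of the monocyte list. Its highest sums there were 181, 0.61 and 163. The WT and D130 levels of Camp thus came mostly from few members. Ms4a3, a marker of granulocyte-monocyte progenitors, stood at 373, 544 and 443 CPM where monocyte genes were high. Where they were low it stood at 2173, 2792 and 1710.1 CPM. Lyz2, the lysozyme gene shared by monocytes and neutrophils, went the other way, at 1459, 266 and 2286 CPM where monocyte genes were high and 106, 154 and 140.3 CPM where they were low. Ly6g had no UMI in either set. The 16 members pass the granule rule while carrying monocyte genes, so each primary share above counts them.

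**Figure D3:**
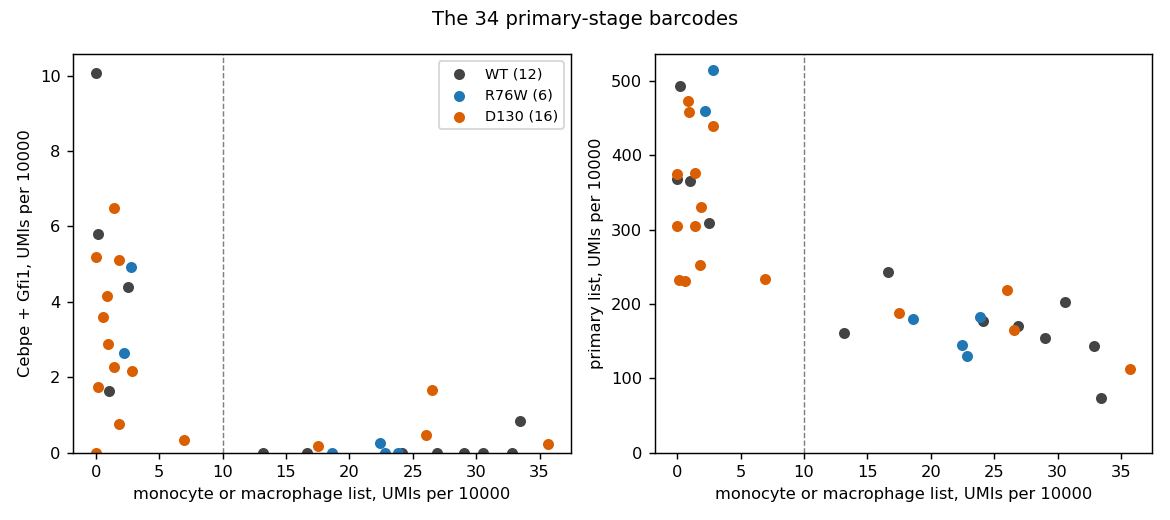
The 34 primary members, with the monocyte list on the x axis and Cebpe plus Gfi1 (left) or the primary list (right) on the y axis, all in UMIs per 10000. The dashed line marks 10 per 10000. Cebpe plus Gfi1 had a median of 3.24 in the 18 members to its left and 0 in the 16 to its right.

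The granule limit cut through such barcodes. Just under it, 10 barcodes at 75 to 100 per 10000 had a median monocyte sum of 36.5 and a median primary sum of 101 per 10000. The 6 members nearest above it had a median monocyte sum of 30.9 and a median primary sum of 137. At 1000 per 10000 or more, the 201 members had a median monocyte sum of 0.

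The specific stage was compared with the primary stage over 6494 genes with at least 50 UMIs and a UMI in at least 10 members. In all, 558 genes (8.59%) were higher by 2 times or more with the same direction in each library, and 2199 (33.9%) were lower. Both stages were cut from the same cells, so these are descriptions. The 10 genes with the highest ratios were Ltf, Retnlg, Mmp9, Ly6g, Ngp, Plbd1, Ifitm6, Lcn2, Cd177 and Fpr2, and the 10 with the lowest were Ms4a6c, F13a1, S100a4, Kcnq5, Fabp5, Ass1, Nrg1, S100a10, Tifab and Ctsg. Of the lowest, Ms4a6c and F13a1 belong to the monocyte list, and the primary stage holds the 16 members described above. Those members also held 154 of the 154 primary UMIs of S100a4, 558 of 602 of S100a10 and 241 of 299 of Fabp5. For Ctsg they held 2026 of 8461. Kcnq5, Ass1, Nrg1 and Tifab were not split by set. These ratios thus mix the stages with the make-up of the primary members.

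Specific granule genes were higher in 9 of 9 measured members of their list, 4 of which define the stage, against 8.59% of all genes. Ltf, the lactoferrin gene, had no UMI in primary members and stood at 4829 CPM in WT against 7253 in R76W and 3596 in D130 in specific members, at least 2332 times higher over the pooled libraries when 3 counts stand for the 0. Chil3, which encodes a chitinase-like secreted protein, went from 396, 11.028 and 218 CPM to 4186, 5698 and 4279 CPM in WT, R76W and D130. Cd177, a neutrophil surface protein, went from 3.92, 0 and 4.56 CPM to 454, 1009.6 and 543 CPM. Ly6g, the antigen of the usual mouse neutrophil antibody, had no UMI in primary members and stood at 430.2, 824 and 277 CPM, at least 200.6 times higher.

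Of 6 genes of the NADPH oxidase, the enzyme of the respiratory burst, 5 were higher in the specific stage and none lower. Over all genes 8.59% were higher and 33.9% lower. Cybb, its catalytic subunit, stood in primary members at 104 CPM (77.7–136) in WT against 107 (71.4–153) in R76W and 62.6 (47.2–81.5) in D130. It stood in specific members at 1092 CPM (955–1245) in WT against 1184 (965–1437) in R76W and 1167 (1085–1255) in D130, and the intervals of the stages did not overlap in any library. In late members Cybb was back at 238, 218 and 256 CPM.

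Transcription factors were split, with 3 of 12 higher (Cebpe, Klf2, Klf6) and 4 lower (Cebpa, Gfi1, Myb, Irf8). Irf8 is also on the monocyte list. Its primary level came mostly from the 16 members high in monocyte genes, where it stood at 382 CPM over all libraries. Over all genes 8.59% were higher and 33.9% lower, so the share of lower factors is near that of genes at large. Cebpe was highest in the specific stage in all 3 libraries, at 537 CPM (441–646) in WT against 603 (451–791) in R76W and 737 (671–807) in D130, with 170.3, 121 and 174 CPM before and 68.0, 53.6 and 39.6 CPM after. The levels before pool both sets of primary members. In the set low in monocyte genes Cebpe was nearer to the specific level, though still below it in all 3 libraries. In WT it stood there at 426 CPM (339–527), which overlapped the specific interval. Myb, a factor of dividing progenitors, went from 202, 162 and 347 CPM to 24.2, 0 and 58.6 CPM. In the heat shock and unfolded protein response list 7 of 12 genes were lower, against 33.9% of all genes, and none higher. One was Calr, a chaperone of the endoplasmic reticulum, which went from 789, 1202 and 1518 CPM to 72.5, 11.6 and 98.2 CPM.

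Within the specific stage, members with cell cycle genes carried earlier granule genes than members without. At a limit of 50 per 10000 UMIs for a list of 26 cell cycle genes, set after these values were seen, 6 of 12 members were cycling in WT, 2 of 5 in R76W and 15 of 27 in D130. Fcnb, the ficolin-B gene, stood at 708, 116 and 1829 CPM in cycling and 75.3, 0 and 226 CPM in non-cycling members. Ltf was the reverse, at 3539, 5942 and 2234 CPM in cycling and 6887, 8564 and 7795 CPM in non-cycling members. Mmp8, neutrophil collagenase, stood at 0, 46.4 and 0 CPM and 991, 1230.0 and 1662 CPM. Over all libraries, the late list had a median sum of 79.6 per 10000 UMIs in non-cycling and 1.31 in cycling members. Cycling members were also deeper, with a median of 24087 UMIs against 12521.

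**Figure D4:**
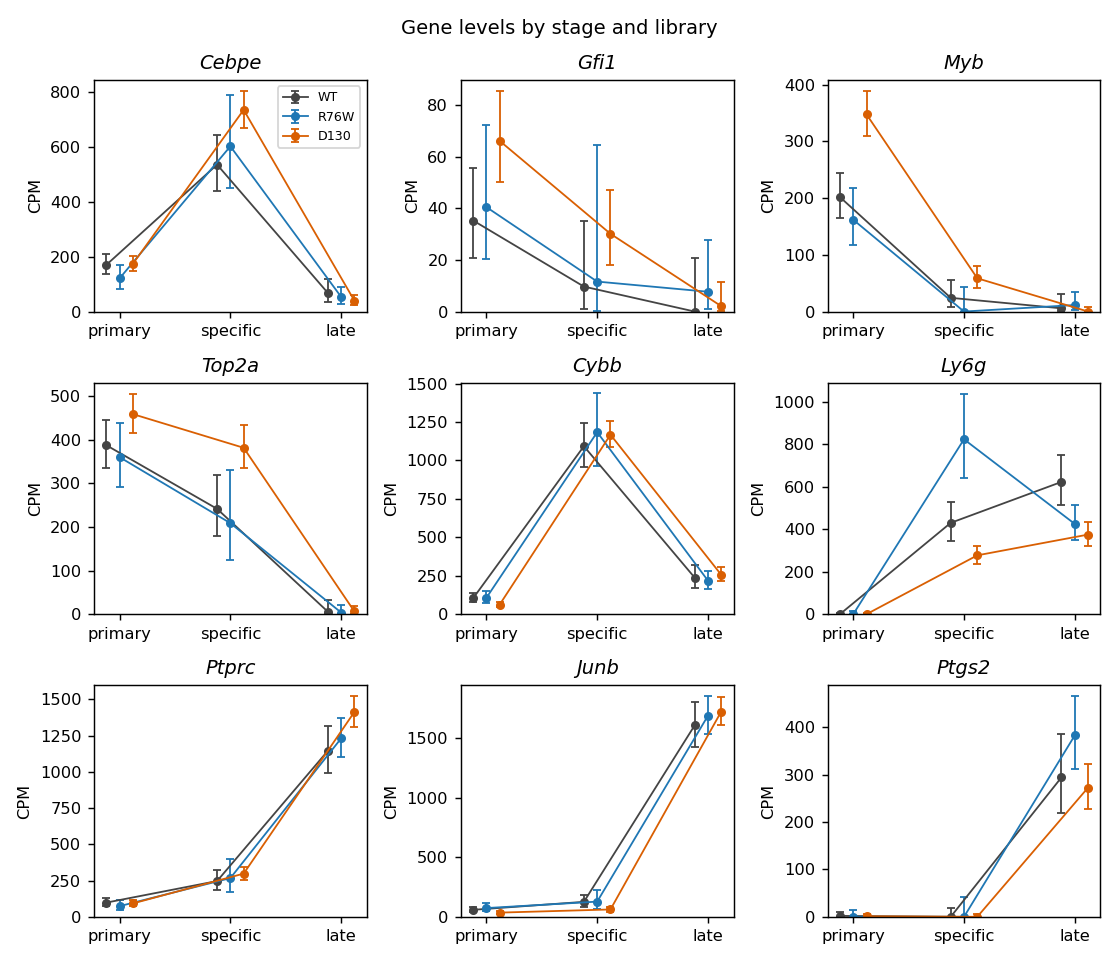
Level in CPM (y axis) of genes that no stage list used, by stage (x axis) and library (colour), with exact Poisson 95% intervals as error bars. Cebpe and Cybb were highest in the specific stage, and Ptgs2 reached 273 to 383 CPM in the late stage.

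From the specific to the late stage, 1221 of the 6494 genes (18.8%) were higher by 2 times or more with the same direction in each library and 1367 (21.1%) were lower. The highest ratios were those of Il1b, Wfdc17, Ptgs2, St8sia4, Ccl6, Nlrp3, Acod1, Sirpb1b, Arg2 and Jaml. The lowest were those of Fcnb, Hist1h3c, Ms4a3, Prc1, Spc24, Cdkn3, Hist1h2ae, Gatm, Nusap1 and Cenpf. Of the gene lists, that of the cell cycle had the most lower genes, with 24 of 26 lower and none higher. Top2a, the topoisomerase of dividing cells, went from 242, 209 and 382 CPM to 5.66, 3.83 and 6.25 CPM. With each member thinned to 1000 UMIs, 5 or more cell cycle UMIs were found in 11 of 12, 6 of 6 and 15 of 16 primary members of WT, R76W and D130, in 6 of 12, 2 of 5 and 15 of 27 specific members and in 0 of 41, 3 of 49 and 2 of 74 late members. Fcnb, at 464, 58.0 and 1437 CPM in specific members, had no UMI in any late member.

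Genes of mature neutrophils were higher in the late stage in 15 of 16 measured cases, 5 of which define it, against 18.8% of all genes. Fpr1, a receptor for bacterial formyl peptides, went from 9.67, 58.0 and 42.8 CPM to 334, 456 and 365 CPM. Ptprc, the CD45 gene, stood at 97.9, 73.5 and 92.3 CPM in primary members, 247, 267 and 298 CPM in specific members and 1144 CPM (992–1313) in WT against 1230.0 (1099–1372) in R76W and 1413 (1308–1523) in D130 in late members. It had a UMI in 39 of 41, 48 of 49 and 74 of 74 late members, so nearly all of them held RNA of an antigen that was stained before the sort. Cxcr4, the receptor for Cxcl12 that retains neutrophils in the marrow, was higher in the late stage in each library but by less than 2 times over the pooled libraries. It stood at 48.3, 186 and 117 CPM in specific and 136, 199 and 163 CPM in late members.

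Inflammatory and immediate early genes were higher in the late stage together. Of 10 measured cytokine and chemokine genes 8 were higher, 2 of which (Il1b and Ccl6) define the stage, and none lower. Of 15 immediate early genes 14 were higher and none lower, against 18.8% of all genes higher and 21.1% lower. Il1b, the interleukin-1 beta gene, had no UMI in specific members and stood at 1977, 2295 and 1792 CPM in late members. Nlrp3, the inflammasome sensor, had no UMI in specific members and stood at 193, 276 and 152 CPM, at least 60.1 times higher over the pooled libraries. Acod1, whose enzyme makes itaconate, had none either and stood at 159, 279.7 and 148 CPM, at least 57.8 times higher. Junb, an AP-1 factor, went from 126, 128 and 61.8 CPM to 1609, 1689.8 and 1725 CPM. The part of tissue digestion and sorting in these levels was not tested.

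Ptgs2 (cyclooxygenase-2), which makes the precursor of prostaglandin E2, the mediator named in the title of the series, was found in late members and hardly in the stroma of the same libraries. It stood at 295 CPM (220.0–386) in WT against 383 (312–466) in R76W and 273 (228–324) in D130, with a UMI in 15 of 41, 23 of 49 and 30 of 74 late members. These 3 intervals overlapped. Specific-stage members had no Ptgs2 UMI in any library, so the late level was at least 95.03 times higher. In Cxcl12-rich stromal barcodes it stood at 0.411 CPM in WT against 0.584 in R76W and 1.52 in D130, with a UMI in 1 of 1494, 3 of 1186 and 4 of 1072 barcodes. Ptges, the inducible prostaglandin E synthase, stood at 0, 3.83 and 2.08 CPM in late members, and of the prostaglandin E2 receptors Ptger2 stood at 5.66, 15.3 and 20.8 CPM and Ptger4 at 0, 7.66 and 6.25 CPM.

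Of 8 measured prostaglandin and leukotriene genes, 3 were higher in the late than in the specific stage (Ptgs2, Alox5, Alox5ap) and 4 lower (Ptgs1, Abcc4, Lta4h, Ltb4r1), against the same 18.8% and 21.1% of all genes. Alox5ap, the partner of 5-lipoxygenase, went from 599, 673 and 687 CPM to 1603, 1230.0 and 1338 CPM, while Lta4h, which makes leukotriene B4, went from 232, 279 and 380.2 CPM to 22.7, 30.7 and 22.9 CPM. Gja1, the connexin 43 gene, had no UMI in R76W members. In WT 97.7% of its 44 member UMIs and in D130 82.0% of 61 lay in the mesenchymal-marked members.

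The late stage was graded in its turn. Of its members, 26 of 41 in WT, 19 of 49 in R76W and 34 of 74 in D130 still held 50 or more per 10000 UMIs of the specific list, a limit set after these values were seen. Ptgs2 stood at 203, 45.1 and 82.4 CPM in them and 505, 735 and 489 CPM in the others. Il1b stood at 1487, 887 and 510.0 CPM and 3103, 3759.9 and 3243 CPM. Wfdc17, which encodes a small secreted protein of activated phagocytes, stood at 504, 383 and 314 CPM and 3552, 2071 and 1413 CPM. Cybb went the other way, at 260.1, 308 and 416 CPM and 187, 125.07 and 75.5 CPM. In each library the intervals of the sets were apart for Il1b, Ptgs2 and Wfdc17, all higher in late members low in specific granule RNA. For Cybb they were apart in R76W and D130 and overlapped in WT, at 178–367 and 89.6–344 CPM.

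Between genotypes the pooled members were set side by side first. Of 6494 genes, 520 (8.01%) were higher by 2 times or more in R76W than in WT and 413 (6.36%) lower, and 212 (3.26%) were higher in D130 than in WT and 121 (1.86%) lower. Both comparisons use the same WT library. Late members supplied 17.1% of member UMIs in WT against 42.1% in R76W and 22.7% in D130, and the pooled levels were not adjusted for stage. All 7 genes of the late list and 11 of 16 measured mature neutrophil genes were 2 times higher in pooled R76W. In the late stage alone none of these was. The lowest ratios in R76W included those of Bglap, Bglap2, Nupr1, Col5a2, Ifi30, Lum, Serpinh1, Col11a1 and Col5a1, and in D130 those of Bglap, Bglap2, Ibsp, Col11a1, Serpinf1, Nupr1, Car1, Col5a2, Nrp2 and Tmtc2. Most are genes of bone and matrix. Bglap stood at 13633 CPM in WT against 12.9 in R76W and 21.2 in D130, and a single WT barcode held 98.9% of the WT UMIs. In WT 99.7% of Bglap2, 98.96% of Col5a2 and 97.3% of Ibsp UMIs lay in the 3 mesenchymal-marked members.

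The highest ratios in R76W were those of Hspa1b, Prr5l, Trim30d, Stfa1, Ankrd33b, Hist1h2ac, Cass4, Stfa3, Tlr13 and Trim8. In D130 they included those of Cd74, Pf4, Stfa1, H2-Ab1, Igfbp7, Hspa1b, Trim8, Pid1 and Cnr2. Single barcodes weighed here too. Cd74 and H2-Ab1, genes of antigen presentation, had 97.2% and 95.8% of their D130 UMIs in 1 unstaged barcode each. Pf4, a platelet gene, had 92.6% in such a barcode, and Stfa3, a stefin gene, had 90.3% of its R76W UMIs in 1 late barcode. In R76W 1 primary barcode held 73.9% of the 23 Hspa1b UMIs, and 1 primary barcode held 47.8% of those of Hist1h2ac. For Ankrd33b and Stfa1, 55.9% and 53.3% of the R76W UMIs lay in 1 late barcode each. In D130 56.7% of Hspa1b UMIs lay in 1 late, mesenchymal-marked barcode. With mesenchymal-marked, monocyte-marked and unstaged members left out, an alternative added after these values were seen, 403 genes were higher and 843 lower in R76W and 111 higher and 44 lower in D130, of 5450. In the specific stage alone, of 1759 genes, 124 (7.05%) were higher and 298 (16.9%) lower in R76W, and with intervals apart 24 and 88. That comparison rests on 5 R76W and 12 WT members, and 1 of the WT members is mesenchymal-marked. All 3 measured mesenchymal and all 4 measured erythroid genes were among the lower ones. In both settings more genes were thus lower than higher in R76W, the reverse of the pooled members.

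The late stage, the one with the most members, was therefore compared on its own and without its 3 mesenchymal-marked barcodes, leaving 40, 49 and 72 members. Of 1963 genes, 136 (6.93%) were higher by 2 times or more in R76W and 32 (1.63%) lower, and in D130 141 (7.18%) were higher and 31 (1.58%) lower. With Poisson intervals apart as well, 43 (2.19%) were higher and 7 (0.357%) lower in R76W, and 59 (3.01%) higher and 11 (0.56%) lower in D130. Of the measured genes of the specific granule (8), gelatinase granule (6), mature neutrophil (16), NADPH oxidase (6) and cytokine (6) lists, none was 2 times higher or lower in R76W or in D130. Il1b stood at 1995 CPM (1791–2216) in WT against 2295 (2115–2487) in R76W and 1903 (1776–2036) in D130, and the R76W and D130 intervals each overlapped that of WT.

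Hdc, the gene of histidine decarboxylase, which makes histamine, was higher in D130. It stood in late members at 692 CPM (574–826) in WT against 1027 (908–1157) in R76W and 1567 (1453–1689) in D130, with a UMI in 33 of 40, 48 of 49 and 70 of 72 members. No pair of these intervals overlapped, and the log2 ratio to WT was 0.57 in R76W and 1.18 in D130. With all late members included, the same order was seen in those that kept specific granule RNA (536, 819 and 1420.2 CPM) and in the others (1028, 1243 and 1506 CPM). The other 6 genes of the basophil and mast cell list, on which Hdc stands, had no UMI in late members of any library.

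Of 12 measured immediate early genes, Egr1 was higher by 2 times or more in R76W, Fos in D130, and none was lower in either. Of all 1963 genes 6.93% and 7.18% were higher, so 1 of 12 is near the share of genes at large and is no result about the list. Fos, a component of AP-1, stood at 663 CPM (548–795) in WT against 1035 (915–1166) in R76W and 1638 (1520.5–1762) in D130. With all late members included, every library held some with no Fos UMI. The highest single members stood at 33.0 (WT), 72.3 (R76W) and 163 (D130) per 10000 UMIs, with medians of 3.09, 6.36 and 11.7, so the libraries overlapped widely. In late members that kept specific granule RNA Fos stood at 683, 1029.7 and 883 CPM, and in the others at 598, 1039.6 and 2429.9 CPM. These sets also include the mesenchymal-marked barcodes, 1 in the first set of WT and 2 in the second set of D130. The D130 level was thus highest in the second set and not in the first. Egr1, a zinc finger factor, stood at 223 CPM (159–305) in WT against 513 (430.2–608) in R76W and 439 (379.8–506) in D130.

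Among the genes lower in D130 was Gadd45g, a stress-induced growth arrest gene, at 160.1 CPM (106–231) in WT against 95.8 (62.0–141) in R76W and 11.3 (3.68–26.4) in D130, with a UMI in 13 of 40, 14 of 49 and 4 of 72 late members. Tspo, a protein of the outer mitochondrial membrane, stood at 852 CPM (720.4–999.97) in WT against 602 (511–703) in R76W and 362 (308–423) in D130. Nt5e, the ectoenzyme CD73 that makes adenosine, stood at 171 CPM (116–245) in WT against 84.3 (52.8–128) in R76W and 56.6 (36.6–83.6) in D130. For Tspo the R76W interval also lay below that of WT, and for Gadd45g and Nt5e it overlapped it. Mapk13, a p38 kinase, stood at 154 CPM (102–225) in WT against 53.6 (29.3–90.0) in R76W and 61.2 (40.3–89.0) in D130, and both were below WT. Rsad2, an interferon-induced antiviral gene, was the 1 gene of 6 on the interferon list that was lower by 2 times or more, at 143 CPM (92.5–211) in WT against 65.1 (37.9–104) in R76W and 47.6 (29.4–72.7) in D130, where the D130 interval alone was clear of WT.

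Genes higher in late members of R76W or D130 tended to have long gene bodies. The 43 genes higher in R76W with intervals apart had a median span of 39.96 kb and the 59 in D130 one of 68.6 kb, against 30.3 kb for all 1963 genes (GENCODE vM21). Over 737 genes of 50 kb or more the median log2 ratio to WT was 0.29 in R76W and 0.32 in D130, and over 487 genes under 10 kb it was 0.01 and -0.04. Stim1, the calcium sensor of the endoplasmic reticulum, stood at 17.1 CPM (3.54–50.1) in WT against 103 (68.2–151) in R76W and 81.5 (57.1–113) in D130. Cux1, a homeobox factor, stood at 62.9 CPM (31.4–113) in WT against 245 (189–313) in R76W and 215 (174–263) in D130. Late members also differed in depth, with a median of 1119 (WT), 1403 (R76W) and 1560 (D130) genes, and the median log2 ratio of all 1963 genes was 0.16 in R76W and 0.15 in D130. The part of depth and of unspliced RNA in these ratios was not tested.

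**Figure D5:**
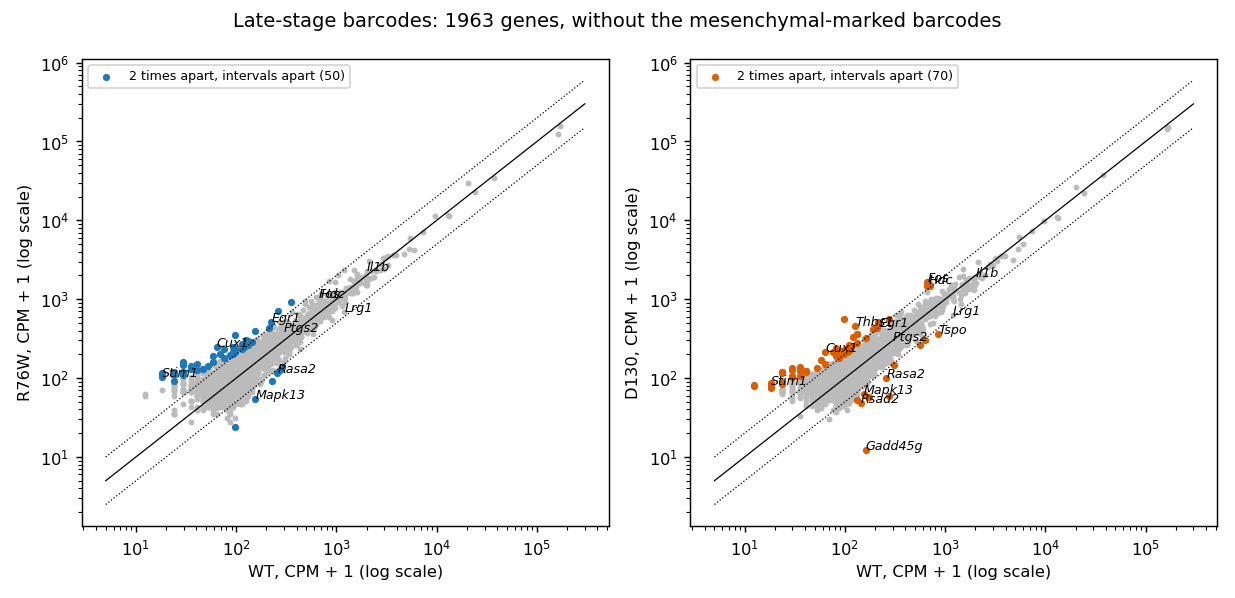
Level in CPM plus 1 of 1963 genes in late members of WT (x axis) and of R76W or D130 (y axis), on log axes, without the 3 mesenchymal-marked barcodes. The solid line marks equal levels and dotted lines 2 times apart. Coloured points are the genes 2 times apart with intervals apart, 43 higher and 7 lower in R76W, 59 higher and 11 lower in D130.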

How the data were processed

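Bone marrow cells sorted as stromal cells were profiled by single-cell RNA sequencing, with 1 library for each of WT, R76W and D130. The deposited files hold UMI counts per gene and barcode, made with Cell Ranger 7.0.1 per the file headers. The submitters' processing notes also name Seurat and mm10, and deposited barcodes start at 500 UMIs. The members and gene lists were chosen with earlier results of these data known.

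Here the counts of members, of each stage and of each library were summed and expressed in CPM. Calls required a ratio of 2 at a pseudocount of 1 CPM. Genes needed 50 UMIs and a UMI in 10 members. Genes named are those of the lists, most UMIs first, and the 10 highest and 10 lowest ratios of each comparison (between libraries, those with Poisson intervals apart), without mitochondrial, ribosomal protein, hemoglobin, immunoglobulin, sex-linked, unnamed, mesenchymal-list and erythroid-list genes. Some genes that this rule names are not reported here. Late-stage genes between libraries were named after their values were seen. The ratio step was tested on simulated data. Doublets were scored with Scrublet in scanpy 1.11.5 (expected rate 0.06). In WT, where the automatic threshold marked 0 barcodes, the top 3.50% by score were taken. Python 3.11.15, numpy 2.4.6, scipy 1.17.1 and pandas 2.3.3 were used. Promoter motifs were searched in RefSeq sequences and gene spans read from GENCODE vM21. UMI counting removes PCR duplicates, and reads over introns may be included in the counts, which is not stated in the sources used here. In 3′ libraries a gene's count comes mainly from its 3′ end, unless reads over introns are counted. Levels were not scaled by length and were compared for 1 gene at a time.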

Additional observations from a re-analysis of the deposited data

Results flagged for a closer look

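Neutrophil granule genes were also found in barcodes that the mitochondrial limit left out. Barcodes over 10% mitochondrial UMIs that met the granule, Cxcl12 and hemoglobin limits numbered 8 in WT, 8 in R76W and 15 in D130, each above the limit of 3 that a count of 0 allows. Their median mitochondrial share was 23.2%, 38.1% and 32.9%. By the same stage lists, 6, 4 and 10 of them were late, 2, 1 and 4 specific, and 0, 1 and 1 primary, with 2 in R76W unstaged. No comparison above uses these barcodes.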

How the results depend on the processing

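No paired analysis was possible because each genotype has 1 library, and no replicate could be left out. Stage shares in libraries of 60 to 122 members carry wide intervals, and genes with few UMIs limit what can be seen. Of the member shares 40 stayed within their intervals and 2 did not, and of the stage shares 137 did and 7 did not. With barcodes under 1% hemoglobin as the denominator the member share was 3.04% in WT and 7.10% in D130. At a granule limit of 200 the R76W primary share was 3.57%. Without the gene with the most UMIs of each stage list, specific shares were 38.8%, 25% and 36.1% and late shares 38.8%, 63.3% and 45.1% in WT, R76W and D130.

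Counts of genes 2 times apart between libraries depended strongly on the settings, and the causes were not tested beyond the numbers of genes measured. They were 520 higher and 413 lower in R76W and 212 higher and 121 lower in D130 as reported over 6494 genes. A pseudocount of 10 CPM gave 286 and 160 in R76W and 63 and 68 in D130. At 20 UMIs per gene, of 8844 genes, 778 (8.80%) were higher and 864 (9.77%) lower in R76W. In D130 465 (5.26%) were higher and 269 (3.04%) lower. At 200 UMIs, of 2435 genes, the counts were 194 (7.97%), 69 (2.83%), 43 (1.77%) and 34 (1.40%). In R76W the share of higher genes at 200 UMIs was thus near the reported one. With members thinned to 1000 UMIs, where 642 genes were measured, the counts were 65 (10.1%), 46 (7.17%), 33 (5.14%) and 10 (1.56%). With equal weight for each stage 196 (3.02%) were higher and 334 (5.14%) lower in R76W. Without monocyte-marked members, of 5659 genes, 619 (10.9%) were higher and 910 (16.1%) lower in R76W. In the specific stage alone, of 1759 genes, 124 (7.05%) were higher and 298 (16.9%) lower in R76W. In D130 109 (6.20%) were higher there and 33 (1.88%) lower. In these 4 settings lower genes outnumbered higher ones in R76W, the opposite of the reported count, and a pseudocount of 10 CPM did the same in D130.

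The other alternatives were added after seeing the data. In the late stage alone, of 2051 genes, 159 (7.75%) were higher and 39 (1.90%) lower in R76W. In D130 173 (8.43%) were higher there and 24 (1.17%) lower. Without mesenchymal-marked barcodes the late stage gave 136, 32, 141 and 31 of 1963 genes. Without mesenchymal-marked, monocyte-marked and unstaged members, of 5450 genes, 403 (7.39%) were higher and 843 (15.5%) lower in R76W. In D130 111 (2.04%) were then higher and 44 (0.81%) lower. Of the late-stage ratios of single genes under the settings tried, 172 stayed within their counting error and 3 did not, and none that was 2 times apart changed direction. On thinned members the D130 log2 ratio was 1.75 for Fos and 2.00 for Egr1.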
